A study of Mus musculus with 14 samples.

Results

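Oxidative phosphorylation genes encode the 4 respiratory chain complexes and the ATP synthase of mitochondria. They were taken from the deposited expression table by symbol in GENCODE M21: protein-coding genes whose symbol starts with Nduf, Sdha to Sdhd, Uqcr, Cox4 to Cox8, Atp5 or mt-. The rule gave 111 genes, of which 110 had values among the 49583 genes of the table. They comprise 85 nuclear subunit genes (36 of complex I, 4 of complex II, 8 of complex III, 20 of complex IV and 17 of complex V), 12 nuclear assembly factors (Ndufaf1 to Ndufaf8 and Sdhaf1 to Sdhaf4) and the 13 protein genes of the mitochondrial genome. Ndufa4 and Ndufa4l2, named after complex I, were counted with complex IV, where the Ndufa4 protein is found. Cyc1, a nuclear subunit of complex III, does not match the rule and is in none of these counts. Of the 110 genes, 107 reached 1 FPKM in at least 1 group, and Cox7b2, Cox8b and Cox8c stayed under 1 FPKM in every group.

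Complexes I, III and IV pump protons across the inner mitochondrial membrane while passing electrons from NADH to oxygen, complex II feeds in electrons from succinate, and complex V makes ATP from the proton gradient. Complexes I, III, IV and V are built from subunits of both genomes, and complex II from nuclear genes alone. Erythroid cells make heme with mitochondrial enzymes and later lose their mitochondria as they mature into red cells.

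The study profiled RNA of sorted mouse blood cells, with 14 samples in 7 groups of 2, all from wild type C57BL/6 animals. Spleen Ter cells were Ter-119+ CD45- Lin- cells from the spleen of tumor-bearing mice, and the control was CD45+ Ter-119- cells of the same kind of spleen, so that both spleen groups share the tumor. Liver Ter cells were sorted by the same markers from embryonic liver at E14.5. The 4 bone marrow groups were labelled HSC (c-Kit+ Sca-1+ Lin-), CLP (c-Kit+ Sca-1+ IL-7R+ Lin-), MEP and CMP (both c-Kit+ FcγRlo Lin- IL-7R- Sca-1-, with MEP labelled CD34+ and CMP labelled CD34-). The labels give neither the tumor, nor whether animals were pooled, nor what separates the 2 samples of a group, so p-values measure the spread between these samples, which may be technical.

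The table holds 1 mean per group, in FPKM (fragments scaled by transcript length and by library depth). For both Ter groups and for MEP and CMP, single libraries could be recovered from the digits of the mean, at depths from 13413530.5 fragments (a total estimated from the digits) to 28537889 fragments, and paired values below are given with the deeper library first. The control, HSC and CLP means could not be split, so they carry no error. Differences are computed only among them, and where they are set beside the other columns it is as description. The 2 spleen Ter libraries stood apart: on log2(FPKM + 1), 22.2% of genes differed over 2-fold between them, against 0.714% to 2.09% in the other groups. Markers outside the spleen gate were present. The 8 neutrophil markers summed to a mean of 21860 FPKM in spleen Ter and 244.9 FPKM in liver Ter, and the 5 T cell markers with values to 175 and 218 FPKM in spleen Ter and 0.0666 and 0.0457 FPKM in liver Ter. In the spleen libraries 5 of 5 B cell markers reached 1 FPKM, summing to 987 and 1275 FPKM, as did 7 of 7 macrophage markers, summing to 159 and 1057 FPKM, whereas in liver Ter the B cell markers summed to 1.42 and 1.63 FPKM and the macrophage markers to 11.96 and 10.2 FPKM. The libraries labelled MEP went against their label: 8 of 8 neutrophil markers summed to 141100 FPKM, the erythroid factor Klf1 was at 1.57 and 0.944 FPKM, and Cd34, part of their label, at 0.111 and 0.0273 FPKM. In the libraries labelled CMP, labelled negative for it, Cd34 was at 29.3 and 30.1 FPKM. The part of these other cells in the results that follow was not tested, and in bulk RNA fewer cells of a type and less RNA per cell cannot be told apart.

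Mitochondrial transcripts and nuclear transcripts of the same machine stood in very different proportions in the groups. The 7 mitochondrial genes that do not lie whole inside a copy of mitochondrial DNA on chromosome 1 (mt-Nd1, mt-Nd2, mt-Nd4, mt-Nd5, mt-Nd6, mt-Co1 and mt-Cytb) summed to 7.59 times the 85 nuclear subunits in liver Ter and to 0.600 times in spleen Ter, with 1.43 in the libraries labelled MEP and 2.10 in those labelled CMP. In the other set of columns the same ratio of summed FPKM was 2.89 for the control column, 4.07 for HSC and 3.67 for CLP. That copy still covers 63.6% of the mt-Nd4 transcript and 31.3% of the mt-Co1 transcript, so reads of these 2 genes are partly uncertain. Pseudogenes elsewhere match 52.3% of the mt-Nd5 transcript at 95.2% identity (Gm4076), 49.1% of mt-Nd2 at 96.7% (Gm13339) and all of mt-Co1 at 97.6% (Gm13340). Gm4076 was deposited at 0.127 to 1.56 FPKM in spleen Ter, liver Ter, MEP or CMP, and at 8.14 to 18.9 FPKM in the other columns. As a share of all FPKM, the 13 mitochondrial genes held 7.06% in liver Ter, 0.857% in spleen Ter, 1.02% in MEP and 4.04% in CMP, and the nuclear subunits 0.924%, 1.41%, 0.711% and 1.92%. A ratio within a library does not move with the scaling between libraries. Liver Ter was thus the most mitochondrial of its 4 groups and spleen Ter the least.

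In single libraries, mt-Nd5 and mt-Nd6 gave the same order of groups relative to nuclear subunits. mt-Nd5, a proton-pumping core subunit of complex I (ENSMUSG00000064367, chrM:11742-13565, plus strand, mm10), stood at 739.9 and 821 FPKM in liver Ter, 259 and 199 FPKM in spleen Ter, 248 and 226 FPKM in the libraries labelled MEP, and 749 and 865 FPKM in those labelled CMP. Spleen Ter and MEP overlapped at the low end and liver Ter and CMP overlapped at the high end, with no overlap between these pairs. Relative to nuclear subunits, mt-Nd5 was 25.3% and 27.8% in liver Ter, 15.6% and 16.9% in CMP, 9.14% and 8.59% in MEP, and 5.01% and 3.79% in spleen Ter, and no 2 groups overlapped. Shares of nuclear subunits in single libraries, here and below, use 84 genes, without Atp5b, whose MEP libraries could not be split. In the limma test, mt-Nd5 was lower in spleen Ter than in the liver libraries on the log2(FPKM + 1) scale (log2 difference -1.78, SE 0.16, adjusted p = 0.000133) and lower than in CMP (-1.82, SE 0.16, adjusted p = 0.000206), while its difference from MEP was -0.06 (SE 0.16, adjusted p = 0.764).

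mt-Nd6, the complex I subunit encoded on the opposite strand (ENSMUSG00000064368, chrM:13552-14070, minus strand), was at 228 and 220.3 FPKM in spleen Ter, 531 and 601 FPKM in liver Ter, 180.4 and 164 FPKM in MEP, and 543 and 598 FPKM in CMP. The sources used here do not say whether counting used strand, so reads of mt-Nd6 and of the antisense transcript of that stretch cannot be told apart. Its 2 spleen libraries lay below both liver libraries (log2 difference -1.33, SE 0.12, limma adjusted p = 0.000133). Both mt-Nd5 and mt-Nd6 kept these directions, spleen below liver and liver above MEP, under the 2 other scalings tried. mt-Nd2 and mt-Nd4, also of complex I, were lower in the libraries labelled MEP than in those labelled CMP (-2.05, SE 0.25, limma adjusted p = 0.00177 for mt-Nd2, and -1.47, adjusted p = 0.000541, for mt-Nd4). Neither was called with median-of-ratios scaling, at -1.30 for mt-Nd2 and -0.72 for mt-Nd4, and of the 10 mitochondrial genes tested in that comparison 7 were lower as deposited and 2 with that scaling.

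mt-Co1, the catalytic subunit of complex IV, had the highest group mean of any member in all 7 columns. Its means were 14070 FPKM in liver Ter, 974.7 FPKM in spleen Ter, 1950 FPKM in MEP and 4011 FPKM in CMP. In the other set they were 4320 FPKM in the control, 8339 FPKM in HSC and 6807 FPKM in CLP. Its libraries could be told apart in spleen Ter (1119 and 830.2 FPKM) but not in the other 3 groups of the set, so it was not tested. For mt-Cytb, the catalytic subunit of complex III encoded in mitochondria, the spleen libraries were at 622 and 672 FPKM and the MEP libraries at 778 and 680 FPKM (log2 difference -0.17, limma adjusted p = 0.334), while its liver and CMP means, 3535 and 2265 FPKM, could not be split.

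The other 6 mitochondrial genes (mt-Co2, mt-Co3, mt-Atp6, mt-Atp8, mt-Nd3 and mt-Nd4l) are uncertain in this table, because they lie whole inside the stretch that mouse chromosome 1 also carries. The first 90 bases of mt-Co2, a core subunit of complex IV (chrM:7013-7102, plus strand, mm10), are shown with the same bases of its copies Gm28661 (chr1:24615476-24615565, minus strand) and Gm13341 (chr2:22587873-22587962, minus strand). Over these bases, reads of mt-Co2 and of Gm28661 cannot be told apart by sequence. Each is written 5′ to 3′, from the GENCODE M21 transcripts, and capitals mark bases that differ from mt-Co2.
mt-Co2: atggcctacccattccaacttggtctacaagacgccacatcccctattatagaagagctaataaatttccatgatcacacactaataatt
Gm28661: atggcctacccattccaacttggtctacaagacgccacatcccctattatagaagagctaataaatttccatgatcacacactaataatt
Gm13341: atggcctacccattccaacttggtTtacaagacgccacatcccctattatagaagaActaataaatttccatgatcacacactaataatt
The chromosome 1 copy had 0 differences over these bases, and the chromosome 2 copy had 2, C25T and G57A, counted from the 5′ end of the stretch. Over 681 aligned bases, 99.6% of the mt-Co2 transcript, Gm28661 had 0 mismatches.

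The values of these 6 genes split by column set. mt-Co2 was deposited at 1217, 4558 and 2590 FPKM in the control, HSC and CLP columns, where its copy Gm28661 stood at 1325, 4813 and 2782 FPKM. In the other columns the gene was at 5.54 FPKM in spleen Ter, 42.4 FPKM in liver Ter, 3.42 FPKM in MEP and 7.87 FPKM in CMP, and the copy at 7.20, 51.5, 5.93 and 11.01 FPKM. Gene and copy were thus both high in the control, HSC and CLP columns and both low in the others, while mt-Nd5, outside the chromosome 1 copy, spanned 901.6 to 1488 FPKM in the first and 228.8 to 807 FPKM in the second. The 6 genes together summed to 8328, 22280 and 14000 FPKM in the control, HSC and CLP, and to 33.2 FPKM in spleen Ter, 130 FPKM in liver Ter, 9.77 FPKM in MEP and 29.2 FPKM in CMP. How reads that match 2 places were counted is not given in the sources used here, and its part in these values was not tested. Within the second set, mt-Atp6 of complex V was at 8.46 and 7.27 FPKM in spleen Ter, 37.9 and 38.8 FPKM in liver Ter, 3.04 and 1.75 FPKM in MEP, and 5.72 and 7.99 FPKM in CMP, with 24 to 736 fragments per library, and liver Ter was again above the others. mt-Nd3 went the other way, at 11.4 and 5.93 FPKM in spleen Ter against 1.31 and 1.15 FPKM in liver Ter, and mt-Atp8 rested on 1 and 0 fragments in the spleen libraries.

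**Figure D1:**
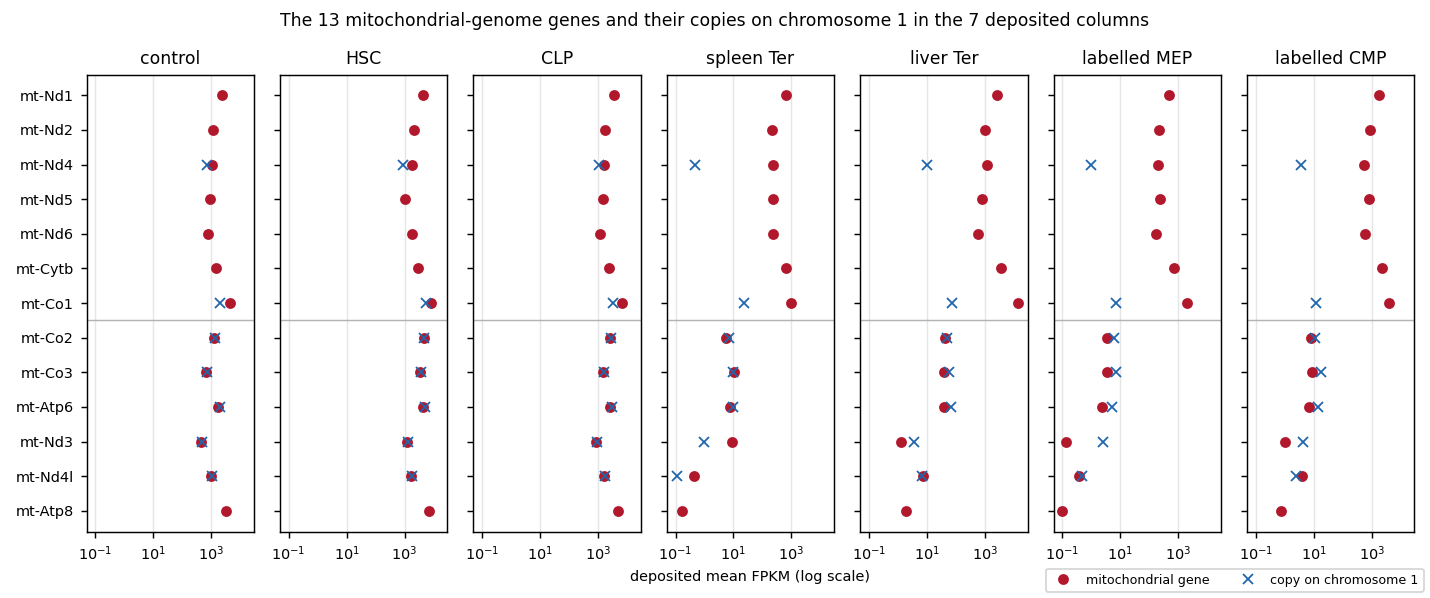
Deposited mean FPKM (log axis) of the 13 mitochondrial genes (red dots) and of their chromosome 1 copies (blue crosses) in the 7 groups, with the 6 genes that lie whole inside the copy below the grey line. Of those 6, mt-Atp8 has no copy plotted. For the others, gene and copy are both low in both Ter groups, MEP and CMP (mt-Co2 at 3.42 to 42.4 FPKM). Both are high in the control, HSC and CLP (mt-Co2 at 1217 to 4558 FPKM).

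For the test across genes, a gene was called when limma's adjusted p was under 0.05 and the difference was at least 2-fold on log2(FPKM + 1). Of the 110 members, 106 passed the filter of 1 FPKM in 2 libraries. Sdhaf1 passed it through spleen Ter alone, Ndufa4l2 through liver Ter alone and Cox4i2 through CMP alone. Each of these could be called only as higher in that group, and they remain in the counts. In spleen Ter against liver Ter, 44 of 102 tested members were higher and 9 lower, where 42.8% and 11.6% of 13129 genes were called that way, and the members' median log2 difference of 0.81 lay beside 0.79 for all genes. In spleen Ter against MEP, 47 of 105 were higher and 1 lower, with 23.1% and 19.3% of genes called and medians of 0.86 for members and 0.10 for all genes. In spleen Ter against CMP, 7 of 104 were higher and 13 lower, beside 13.8% and 28.1% of genes, with medians of 0.06 and -0.40. The member share was thus close to the background in the first of these comparisons and above it, in the higher direction, in the second.

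In liver Ter against MEP, 12 of 101 members were higher and 6 lower, beside 8.74% and 33.1% of genes, with medians of 0.14 for members and -0.54 for all genes. In liver Ter against CMP, 4 of 102 were higher and 32 lower, beside 6.91% and 53.1% of genes, with medians of -0.75 and -1.12. In the libraries labelled MEP against those labelled CMP, 0 of 103 were higher and 46 lower, beside 7.26% and 24.3% of genes, with medians of -0.89 and -0.41. The comparisons share groups, so they are not independent of each other.

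Directions of most nuclear members depended on the scaling between libraries. The 10 globin genes held 47.6% of FPKM in liver Ter and 13.7% in spleen Ter, and the median of all genes in spleen Ter against liver Ter was 0.79 as deposited and 0.08 with median-of-ratios scaling. With that scaling the member calls in spleen Ter against liver Ter were 12 higher and 18 lower of 99, in place of 44 and 9. Of 12762 genes, 3521 were then higher and 3220 lower. In liver Ter against CMP 50 of 99 members were higher and 3 lower, in place of 4 and 32, beside 2826 and 2641 of 12780 genes. Members were 24 higher and 3 lower of 101 in spleen Ter against CMP, beside 2495 and 1867 of 12778 genes. They were 59 and 1 of 98 in liver Ter against MEP, beside 2850 and 2941 of 12709 genes. With totals that leave out globin and mitochondrial genes, spleen Ter against CMP gave 16 higher and 4 lower of 102 members. Of 12997 genes, 2489 were higher and 2332 lower. Liver Ter against MEP gave 27 and 4 of 99 members, beside 1734 and 3550 of 12927 genes. Liver Ter against CMP gave 9 and 13 of 100, beside 1512 and 4518 of 12998 genes. Spleen Ter against MEP kept its direction under both, with 36 higher and 1 lower, and 51 higher and 1 lower. The genes were 2673 and 2768 of 12718, and 3376 and 2317 of 12937. The member median minus that of all genes kept its sign except in spleen Ter against liver Ter (0.02, -0.45 and -0.2). In liver Ter against CMP it was 0.37 as deposited, 1.02 with median-of-ratios scaling and 0.63 with the other totals. In liver Ter against MEP it was 0.67, 1.22 and 0.94.

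**Figure D2:**
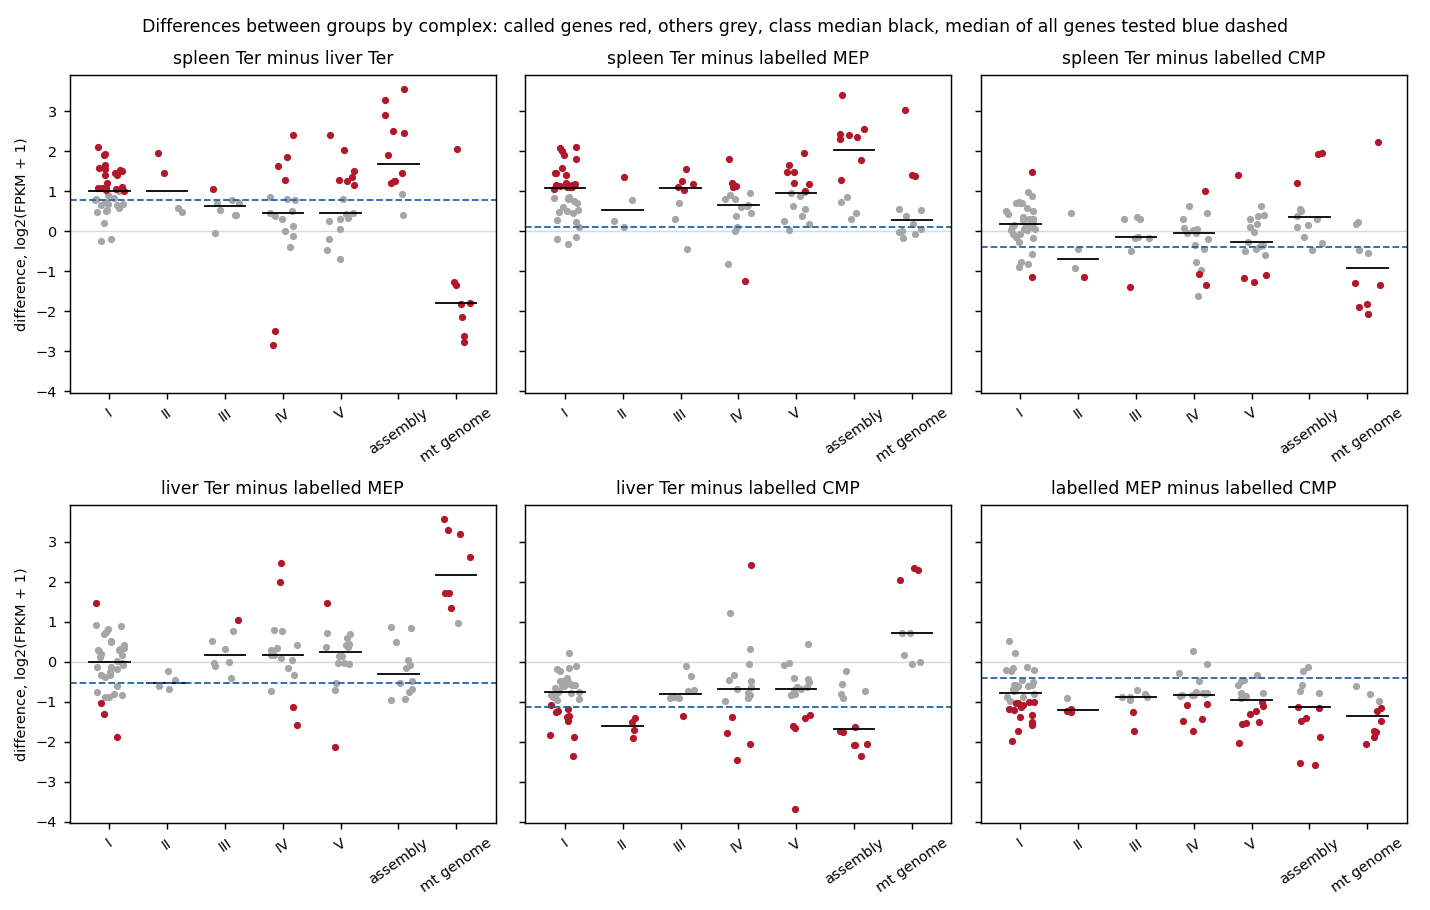
Log2 differences of log2(FPKM + 1) for the tested members in the 6 comparisons, by complex, assembly factors and mitochondrial genome. Red points were called, grey points were not, black bars are medians of each class and the blue dashed line is the median of all genes. In spleen Ter against liver Ter the assembly factors lie highest (median 1.69) and the mitochondrial genes lowest (median -1.79, of which 6 of 8 tested are the uncertain ones). With median-of-ratios scaling these 2 medians are 1.09 and -3.01, while those of complexes I to V turn negative.

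Complex I oxidises NADH. Its 36 nuclear subunits summed to 1773 and 1879 FPKM in spleen Ter, 834 and 837 FPKM in liver Ter, 911 and 898 FPKM in MEP, and 1432 and 1487 FPKM in CMP. In spleen Ter against liver Ter, 19 of 36 were called higher and 0 lower (median 1.02), beside 42.8% of all genes called higher and their median of 0.79, but with median-of-ratios scaling 1 was higher and 2 lower (median -0.18). Against MEP, 19 were higher and 0 lower in spleen Ter (median 1.08), beside 23.1% of all genes called higher, and 13 and 0 with that scaling. As a share of nuclear subunits without Atp5b, which scaling cannot move, complex I held 34.4% and 35.8% in spleen Ter, 33.5% and 34.1% in MEP, 29.9% and 29.1% in CMP, and 28.5% and 28.4% in liver Ter. With Atp5b, the shares of the group means were 34.3%, 32.6%, 28.1% and 26.8% in that order.

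The core subunits of complex I encoded in the nucleus did not share 1 order across the groups. Ndufs7, which holds an iron-sulfur cluster near the ubiquinone site, was at 39.7 and 56.7 FPKM in spleen Ter, 15.9 and 14.47 FPKM in liver Ter, 15.8 and 17.5 FPKM in MEP, and 27.0 and 29.6 FPKM in CMP. Ndufs1, the large iron-sulfur subunit, was at 3.85 and 6.22 FPKM in spleen Ter, 6.13 and 5.75 FPKM in liver Ter, 5.97 and 5.65 FPKM in MEP, and 9.32 and 9.39 FPKM in CMP. The 2 spleen libraries were thus above all others for Ndufs7 and overlapped liver and MEP for Ndufs1.

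Among accessory subunits of complex I, Ndufa2 was the member of this complex called higher in spleen Ter against CMP as deposited. It stood at 166 and 247 FPKM in spleen Ter, 57.2 and 50.3 FPKM in liver Ter, 47.5 and 45.9 FPKM in MEP, and 73.7 and 69.9 FPKM in CMP, with no overlap between spleen Ter and the others. The difference from CMP was 1.48 (SE 0.20, limma adjusted p = 0.00104), and it was 2.07 and 1.97 under the other scalings. With median-of-ratios scaling 11 of 35 complex I subunits were called higher in that comparison, beside 2495 of 12778 genes. With totals without globin and mitochondrial genes 8 of 35 were, beside 2489 of 12997 genes. Ndufb5, a membrane-arm subunit (chr3:32736990-32751566), was low in liver Ter, at 1.17 and 1.37 FPKM, against 8.97 and 8.45 FPKM in spleen Ter, 3.56 and 3.77 FPKM in MEP, and 9.94 and 11.5 FPKM in CMP. The spleen to liver difference of 2.10 (SE 0.16, limma adjusted p = 6.6e-05) remained a call at 1.25 with median-of-ratios scaling. Ndufv3, an accessory subunit of the NADH-binding module, was at 6.40 and 7.17 FPKM in liver Ter and at 29.0 and 26.0 FPKM in MEP (log2 difference -1.87, SE 0.14, limma adjusted p = 6.41e-05), and this call was lost at -0.88 with median-of-ratios scaling.

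Complex II, succinate dehydrogenase, also works in the citric acid cycle. Its 4 subunits summed to 149 and 204 FPKM in spleen Ter, 67.5 and 72.1 FPKM in liver Ter, 106 and 102 FPKM in MEP, and 233 and 245 FPKM in CMP. As a share of nuclear subunits the complex was highest in CMP, at 4.86% and 4.78%, and lowest in liver Ter, at 2.31% and 2.44%. MEP held 3.89% and 3.85%, and spleen Ter, with 2.89% and 3.88%, overlapped it. On the log2(FPKM + 1) scale, 2 members differed over 2-fold between the spleen libraries. The catalytic subunit Sdha was 1 of them, at 20.9 and 46.6 FPKM. Spleen Ter thus overlapped liver Ter for Sdha (20.0 and 21.3 FPKM) and lay on both sides of MEP (28.6 and 29.0 FPKM). Sdhb, the iron-sulfur subunit, was at 45.5 and 54.9 FPKM in spleen Ter and 11.99 and 12.1 FPKM in liver Ter (log2 difference 1.97, SE 0.14, limma adjusted p = 4.92e-05), a call lost at 0.79 with median-of-ratios scaling. In liver Ter against CMP, 4 of 4 subunits were called lower as deposited (median -1.61), where 53.1% of all genes were called lower (median -1.12), and 0 of 4 in either direction with median-of-ratios scaling, where the median was 0.17.

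Complex III passes electrons from ubiquinol to cytochrome c. Its 8 nuclear subunits of the rule summed to 614 and 624 FPKM in spleen Ter, 395 and 401 FPKM in liver Ter, 307 and 291 FPKM in MEP, and 601 and 638 FPKM in CMP, so that spleen Ter and CMP overlapped in these sums. The sums lack Cyc1, which the rule leaves out. Cyc1 was at 66.4 and 74.0 FPKM in spleen Ter, 65.2 and 61.8 FPKM in liver Ter, 48.7 and 44.4 FPKM in MEP, and 97.3 and 103 FPKM in CMP. The core subunit Uqcrc2 was at 24.0 and 15.8 FPKM in spleen Ter, 19.4 and 20.7 FPKM in liver Ter, 27.9 and 25.5 FPKM in MEP, and 53.9 and 51.7 FPKM in CMP. CMP stood apart and spleen and liver Ter overlapped. The Rieske iron-sulfur subunit Uqcrfs1, in contrast, was at 74.5 and 67.8 FPKM in spleen Ter and 75.2 and 80.7 FPKM in CMP (log2 difference -0.13, SE 0.12, limma adjusted p = 0.401). It was at 39.4 and 42.5 FPKM in liver Ter and 31.6 and 32.9 FPKM in MEP, and spleen Ter was called higher than MEP (1.12, limma adjusted p = 0.000452), a call lost at 0.97 with median-of-ratios scaling.

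Complex IV reduces oxygen, and several of its small subunits come in 2 forms from separate genes. The 20 nuclear genes summed to 1639 and 1524 FPKM in spleen Ter, 993.4 and 993 FPKM in liver Ter, 809 and 792 FPKM in MEP, and 1357 and 1448 FPKM in CMP. Cox4i1, the common form of subunit 4, was at 222 and 281 FPKM in spleen Ter, above 79.6 and 79.3 FPKM in liver Ter, 73.1 and 66.6 FPKM in MEP, and 117 and 131 FPKM in CMP. Its second form Cox4i2 reached at most 2.08 FPKM in any library. Cox5a, which binds close to the catalytic core (chr9:57521274-57532426), was the complex IV member furthest below CMP in liver Ter, at 3.69 and 4.13 FPKM against 27.7 and 22.5 FPKM in spleen Ter, 13.5 and 13.96 FPKM in MEP, and 25.1 and 26.4 FPKM in CMP. The spleen to liver difference was 2.41 (SE 0.16, limma adjusted p = 3.47e-05) and stayed a call at 1.33 with median-of-ratios scaling, whereas liver Ter against CMP, -2.45 (adjusted p = 3.7e-05), was not called at -0.80 with it. The partner subunit Cox5b was 66.1 and 67.2 FPKM in the same liver libraries, though it has a copy, Gm11273, that is 99.2% identical over 390 bases.

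Cox6b2, the form of subunit 6b known from testis (ENSMUSG00000051811, chr7:4751792-4753094), was highest in liver Ter, at 26.9 and 31.7 FPKM. It was at 7.29 and 5.84 FPKM in MEP, 11.4 and 12.6 FPKM in CMP, and at 9.02 and 0.807 FPKM in the 2 spleen libraries, which lie on both sides of MEP. Its share of Cox6b1 and Cox6b2 together was 17.0% and 19.6% for liver Ter, 6.23% and 5.36% for MEP, 6.25% and 6.07% for CMP, and 4.44% and 0.444% for spleen Ter. The spleen to liver difference of -2.83 (SE 0.71, limma adjusted p = 0.0109) kept its direction under both other scalings. It was -4.06 without the deeper spleen library and -1.59 without the other, and lost the call, at -2.71, without the shallower liver library. The 3 testis genes Prm1, Tnp1 and Ldhc summed to a mean of 0.0111 FPKM in liver Ter, with 2 of the 3 at 0.

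Ndufa4l2, a relative of Ndufa4 known as a hypoxia-induced gene (ENSMUSG00000040280, chr10:127514967-127517154), was found in liver Ter alone among these 8 libraries beyond a single fragment. It had 105 and 92 fragments there, or 3.83 and 5.46 FPKM, and 0 fragments in both spleen libraries, both MEP libraries and 1 CMP library, with 1 fragment in the other. A count of 0 allows up to 3 fragments, which corresponds to 0.207 and 0.215 FPKM in the spleen libraries, counting error only. Liver Ter was at least 17.8-fold higher than spleen Ter and at least 24.6-fold higher than MEP against that limit per library. Ndufa4l2 made up 8.29% and 10.9% of Ndufa4 and Ndufa4l2 together in liver Ter.

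**Figure D3:**
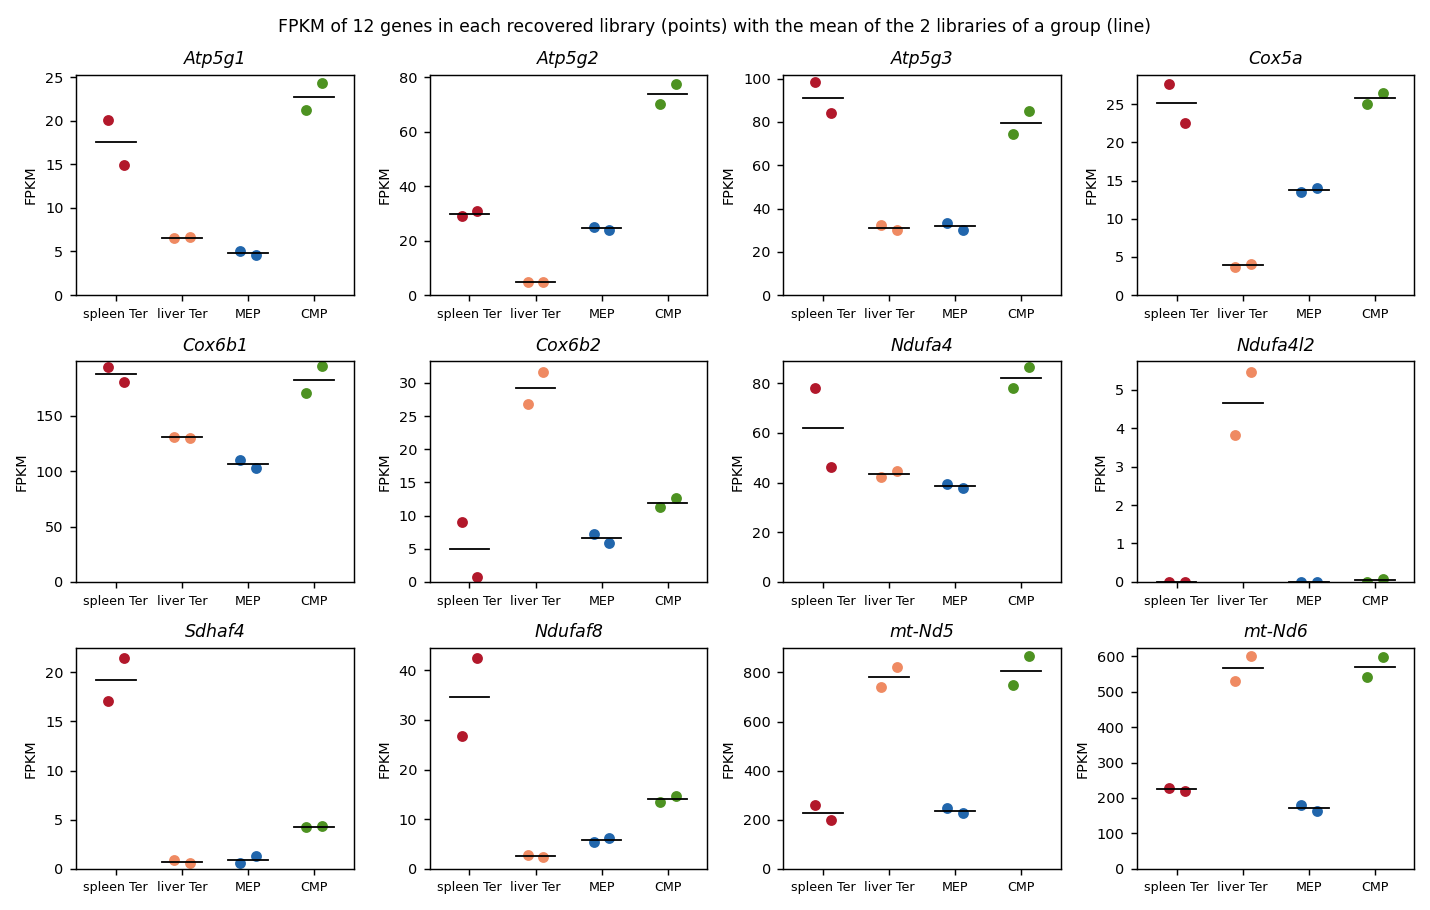
FPKM of 12 members in the 8 recovered libraries, with 1 point per library and a line at each group's mean. Cox6b2 and Ndufa4l2 are highest in the 2 liver Ter libraries (26.9 and 31.7, and 3.83 and 5.46 FPKM), Atp5g2 and Cox5a are lowest there, and Sdhaf4 and Ndufaf8 are highest in the 2 spleen Ter libraries.

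Complex V is the ATP synthase, and its membrane ring of c subunits is encoded by 3 genes, Atp5g1, Atp5g2 and Atp5g3, whose mature proteins are identical. Atp5g2 (ENSMUSG00000062683, chr15:102662864-102672352) was at 4.90 and 4.77 FPKM in liver Ter, 29.1 and 30.8 FPKM in spleen Ter, 25.1 and 24.1 FPKM in MEP, and 70.4 and 77.4 FPKM in CMP, with no overlap between any 2 groups. The difference between liver Ter and CMP, -3.68 (SE 0.13, limma adjusted p = 7.51e-06), was the largest negative one among all members in the 6 comparisons, and remained a call at -1.98 with median-of-ratios scaling. Liver Ter against MEP was also called (-2.13, SE 0.13, adjusted p = 3.16e-05, and -1.17 with that scaling). Within the c subunit trio, Atp5g2 gave 11.2% and 11.5% of FPKM for liver Ter, 19.7% and 23.7% for spleen Ter, 39.6% and 40.8% for MEP, and 42.4% and 41.5% for CMP. Atp5g3 filled most of the rest, with 74.0% and 72.5% for liver Ter, 66.7% and 64.7% for spleen Ter, 52.5% and 51.4% for MEP, and 44.8% and 45.5% for CMP. In the control, HSC and CLP columns Atp5g2 gave 50.9%, 44.2% and 39.4% of the trio. Both Ter groups thus had a smaller Atp5g2 share than MEP and CMP, with no overlap of libraries. Atp5g1 shares reads with the pseudogene Gm10039, 99.8% identical over 411 bases, and its level is uncertain to that extent.

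The catalytic core of complex V followed another order. Atp5a1, the alpha subunit, was at 116.5 and 159 FPKM in spleen Ter, 114 and 116 FPKM in liver Ter, 105 and 103 FPKM in MEP, and 292 and 317 FPKM in CMP. CMP lay above the other 3 groups, and liver Ter against CMP was -1.40 as deposited (limma adjusted p = 0.000329) but 0.44 with median-of-ratios scaling. Atp5b, the beta subunit, was higher in liver Ter (184 and 182 FPKM) than in spleen Ter (114 and 115 FPKM) even as deposited (log2 difference -0.68, adjusted p = 0.00305), short of the 2-fold rule. Its MEP libraries could not be split.

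**Figure D4:**
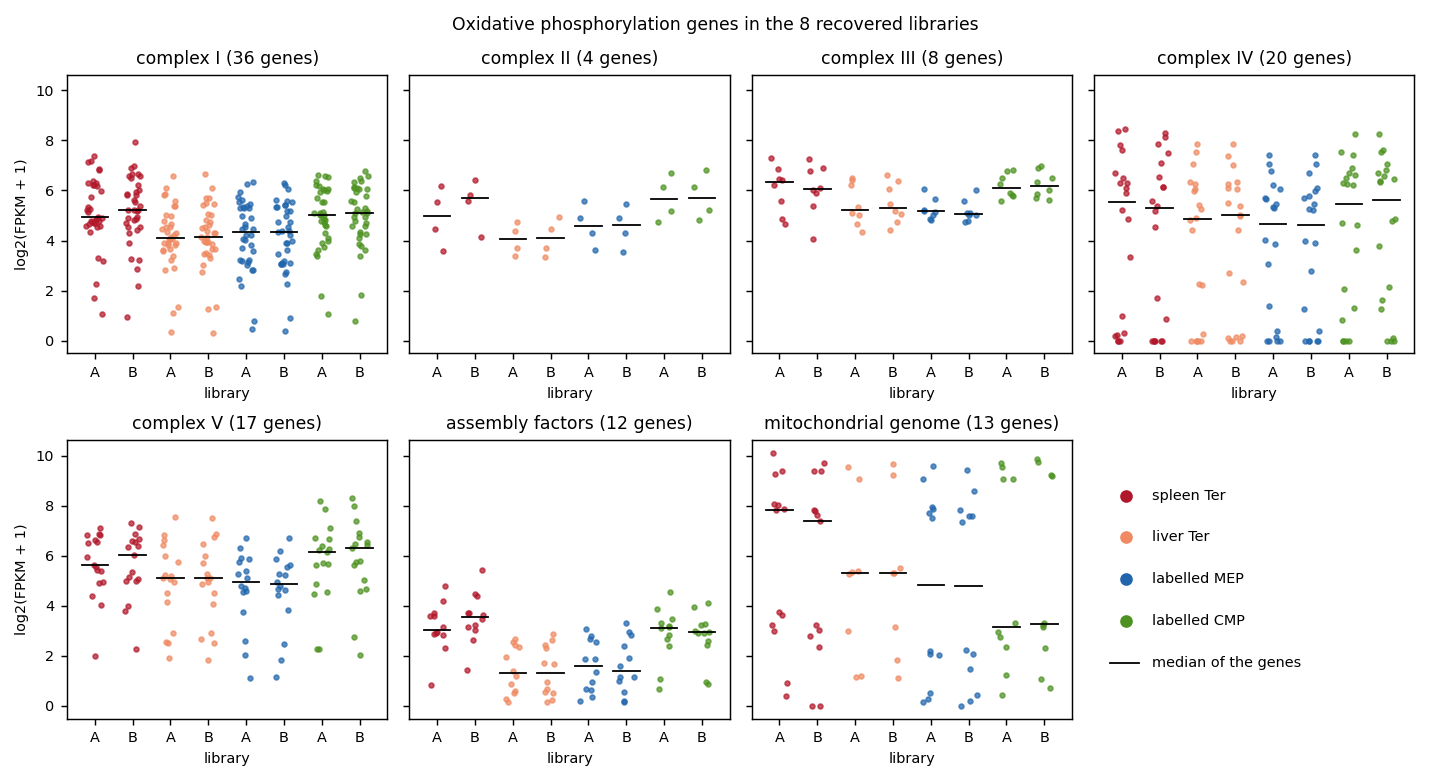
Log2(FPKM + 1) of every member in each of the 8 recovered libraries, in 1 panel per complex, for the assembly factors and for the mitochondrial genome, with a line at each library's median. Spleen Ter is red, liver Ter orange, MEP blue and CMP green. The assembly factors have medians of 7.31 and 10.8 FPKM in spleen Ter and 1.46 and 1.56 FPKM in liver Ter.

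Assembly factors put the complexes together and are not part of the finished enzymes. The 12 of the rule summed to 116 and 160 FPKM in spleen Ter, 26.6 and 27.3 FPKM in liver Ter, 33.1 and 35.1 FPKM in MEP, and 96.2 and 86.2 FPKM in CMP. Relative to nuclear subunits they were at 2.26% and 3.05% for spleen Ter, 0.907% and 0.925% for liver Ter, 1.22% and 1.33% for MEP, and 2.01% and 1.69% for CMP, so that no 2 groups overlapped. In the control, HSC and CLP columns the share, with Atp5b among the nuclear subunits, was 2.06%, 1.99% and 2.04%. Between spleen Ter and liver Ter, 10 of 12 were called higher in spleen and 0 lower (median 1.69), beside 42.8% of all genes called higher, and 6 of 11 higher and 0 lower with median-of-ratios scaling (median 1.09, beside 0.08 for all genes). Against MEP, 8 of 12 were higher in spleen Ter and 0 lower (median 2.05), beside 23.1% of all genes called higher, and 8 of 11 were with that scaling. The 12 include Sdhaf1, which passed the filter through the spleen libraries alone (3.91 and 7.95 FPKM) and could be called only as higher there.

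Sdhaf4, an assembly factor that binds the flavoprotein Sdha of complex II (ENSMUSG00000026154, chr1:23995939-24005656), was at 17.0 and 21.4 FPKM in spleen Ter, 0.842 and 0.587 FPKM in liver Ter, 0.604 and 1.25 FPKM in MEP, and 4.22 and 4.35 FPKM in CMP. The liver values rest on 21 and 9 fragments. The spleen to liver difference of 3.56 (SE 0.23, limma adjusted p = 3.36e-05) was the largest positive one of any member in that comparison, and stood at 2.83 with median-of-ratios scaling. Ndufaf8, a complex I factor (ENSMUSG00000078572, chr11:120098928-120100705), was at 26.8 and 42.5 FPKM in spleen Ter, 2.86 and 2.33 FPKM in liver Ter, 5.41 and 6.15 FPKM in MEP, and 13.5 and 14.7 FPKM in CMP. The difference from liver Ter was 3.28 (SE 0.24, limma adjusted p = 5.19e-05) and the difference from CMP was 1.20 (adjusted p = 0.0052), and both stayed calls with median-of-ratios scaling, at 2.26 and 1.74. Ndufaf2 and Ndufaf4, both complex I factors, were the nuclear members with the largest deficit in MEP against CMP, at -2.59 (SE 0.27, adjusted p = 0.000609) and -2.54 (SE 0.19, adjusted p = 0.000271), and these calls remained at -1.87 and -1.86 with median-of-ratios scaling. Of the spleen calls, Sdhaf4 and Ndufaf8 lay above all 6 other libraries in both spleen libraries, as deposited. So did Ndufaf3, Ndufaf5, Ndufaf6, Sdhaf1 and Sdhaf2 among the other assembly factors. In these spleen libraries the macrophage markers summed to 159 and 1057 FPKM, the B cell markers to 987 and 1275 FPKM and the T cell markers to 175 and 218 FPKM. The part of such cells in these calls was not tested.

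Nuclear promoters of the members were searched for letters of 4 known regulators of mitochondrial genes, from 250 bases before to 50 after the start in RefSeq (GRCm38.p6). Of the 97 nuclear members, 78 had an entry. NRF1 letters (GCGCATGCG, either strand) were found in 10 of them, or 12.8%, against 1.95% of all 27025 genes with an entry. That background was not limited to genes expressed here, and no set of other expressed genes was compared. ETS letters (CCGGAAG) were in 26.9% against 9.93%, YY1 letters (AAGATGGCG) in 10.3% against 1.64%, and CRE letters (TGACGTCA) in 5.13% against 2.03%. At least 1 of the 4 was in 46.2% of members and in 14.2% of all genes with an entry. A match of letters is a description and not a binding site. The NRF1 letters are shown for 2 members whose groups differed strongly, chosen after their values were seen, each 5′ to 3′ on the gene's strand, with matches on both strands, which overlap, in capitals.
Atp5g2: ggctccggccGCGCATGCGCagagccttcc
Ndufaf4: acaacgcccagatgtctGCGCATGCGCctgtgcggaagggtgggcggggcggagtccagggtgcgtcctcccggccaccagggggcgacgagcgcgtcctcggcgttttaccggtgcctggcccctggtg
The Atp5g2 stretch is chr15:102671070-102671099 on the minus strand, with capitals from base -42 to base -33 before the RefSeq start. It is shorter because an annotated GENCODE exon overlaps the 130 bases before that start. The Ndufaf4 stretch is the 130 bases before its start, chr4:24897953-24898082 on the plus strand, with capitals from base -113 to base -104. Both hold the letters. Atp5g2 was at 25.1 and 24.1 FPKM in MEP and 4.90 and 4.77 FPKM in liver Ter, a called difference. Ndufaf4 was at 0.541 and 0.485 FPKM in MEP and 1.31 and 0.965 FPKM in liver Ter. That difference lies near the filter limit of 1 FPKM and was not called as deposited. The part of the letters in these values was not tested.

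Other genes of the pathway were counted by lists. Of 27 tested assembly factors outside the symbol rule, 15 were higher and 0 lower in spleen Ter against liver Ter, beside 42.8% of all genes called higher, and 5 of 28 higher and 3 lower with median-of-ratios scaling. In liver Ter against CMP, 1 was higher and 20 lower, beside 53.1% of all genes called lower, and 1 and 3 with that scaling. Cox14, which acts in early assembly of complex IV, was at 90.2 and 114 FPKM in spleen Ter against 9.69 and 6.47 FPKM in liver Ter (log2 difference 3.52, limma adjusted p = 4.04e-05, and 2.37 with that scaling). Of 15 genes that maintain and express the mitochondrial genome, 6 were higher and 0 lower in spleen Ter against liver Ter, a share near the 42.8% of all genes, and 3 and 3 with median-of-ratios scaling. Tfam, which packages mitochondrial DNA and starts its transcription, was at 9.56 and 10.1 FPKM in spleen Ter, 1.56 and 1.40 FPKM in liver Ter, 2.13 and 2.24 FPKM in MEP, and 8.61 and 6.79 FPKM in CMP. Its order across the groups was thus unlike that of mt-Nd5, which was highest in liver Ter and CMP.

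The list of 6 electron carriers and inhibitor genes also holds Cyc1 of complex III. Of the 6, 5 were lower and 0 higher in MEP against CMP, beside 24.3% of all genes called lower. With median-of-ratios scaling 0 were called in either direction. The inhibitor Atpif1, which blocks the ATP synthase from running backwards and is known to be needed for heme synthesis, was at 106 and 102 FPKM in liver Ter, 46.3 and 24.6 FPKM in spleen Ter, 9.44 and 9.06 FPKM in MEP, and 27.2 and 28.1 FPKM in CMP. Liver Ter lay above all other libraries, by 3.35 over MEP (SE 0.27, limma adjusted p = 9.58e-05), and by 4.43 with that scaling. Of 13 citric acid cycle genes, 0 were higher and 7 lower in spleen Ter against CMP, beside 28.1% of all genes called lower, and 0 and 1 with median-of-ratios scaling. Of 10 tested regulators, 4 were higher and 1 lower in spleen Ter against liver Ter, near the 42.8% of all genes, and 4 and 5 with that scaling. Of 7 tested mitochondrial clearance genes, 3 were higher and 2 lower in liver Ter against MEP, beside 8.74% and 33.1% of all genes, and 5 and 1 with that scaling.

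Between the control, HSC and CLP columns there is 1 mean per group and no test. Of 105 members with at least 1 FPKM in 1 of the 3, 13 were at least 2-fold higher and 1 lower in HSC than in the control, where 15.7% and 10.1% of 14517 genes were. In CLP against the control, 10 were higher and 1 lower, beside 16.5% and 10.8% of genes, and in HSC against CLP 1 was higher and 0 lower, beside 2.91% and 2.31%. The median member was higher in HSC than in the control by 0.46 and in CLP by 0.53 on the log2(FPKM + 1) scale, with 0.12 and 0.15 for all genes. The 13 mitochondrial genes were higher in HSC and in CLP than in the control in 13 of 13 cases each, with medians of 0.98 and 0.66. They include the 6 uncertain genes inside the chromosome 1 copy, which are also in the member counts. Outside that copy, only mt-Nd6 passed 2-fold in HSC (1.22) and none did in CLP. The 1 member higher in HSC than in CLP was mt-Co3, an uncertain gene. Among the genes outside the chromosome 1 copy, mt-Nd6 was at 802 FPKM in the control, 1864 FPKM in HSC and 1196 FPKM in CLP, and mt-Nd5 at 901.6, 1077 and 1488 FPKM.

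Cox6a2, the heart and muscle form of subunit 6a of complex IV (chr7:128205435-128206387), differed most in that set. It was at 2.11 FPKM in the control, 50.02 FPKM in HSC and 31.7 FPKM in CLP, which was 1.81%, 19.9% and 18.6% of Cox6a1 and Cox6a2 together. In the 8 recovered libraries it reached at most 3.40 FPKM, in CMP. The 4 muscle and heart genes Ckm, Myh6, Acta1 and Tnnt2 summed to 0.418 FPKM in HSC and 0.535 FPKM in CLP. Sdhaf1, singled out after its values were seen, was the 1 member at least 2-fold lower than the control in both, at 11.9 FPKM in the control, 3.63 FPKM in HSC and 5.08 FPKM in CLP. The 8 neutrophil markers summed to 9635 FPKM in HSC, 13220 FPKM in CLP and 702 FPKM in the control, and their part in these values was not tested.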

How the data were processed

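The authors deposited 1 table of FPKM values per gene with 1 column for each of 7 groups, each the mean of 2 samples. Per the submitters' processing notes the build was mm10, while no aligner, counter, strand setting or annotation is given there. Of 49588 lines, 2 without a gene name and 3 identical repeats were left out, and 49324 of 49583 genes matched GENCODE M21 by identifier.

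The number format separates 2 sets of columns. No test was run and no fold change computed between the 2 sets, and their values are set side by side only as description. In the 2 Ter groups, MEP and CMP, the digits of each mean allow 1 pair of whole fragment counts for most genes, given the gene's length and the 2 library totals. This returned all 8 library values for 13843 (98.5%) of 14049 genes with at least 1 FPKM in 1 of these groups. For 2515 of these, the length was searched rather than annotated. For 166 genes several pairs were possible in at least 1 group and for 40 none, and such values were left out. Among members these were Atp5b (MEP), mt-Nd1 (liver Ter, CMP), mt-Nd2 and mt-Nd4 (liver Ter), mt-Co1 (liver Ter, MEP, CMP) and mt-Cytb (liver Ter, CMP). The assignment of libraries to the 2 samples of a group is by depth alone and carries no sample name.

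Recovered values were tested on log2(FPKM + 1) with limma 3.58.1 in R 4.3.3, over 8 libraries and all genes with at least 1 FPKM in 2 libraries, with a mean-variance trend and Benjamini-Hochberg adjustment over all genes tested. The spread is pooled over the groups, so it understates the error of the spleen Ter libraries. A call needs an adjusted p under 0.05 and a 2-fold difference. The recovery and the test were tested on simulated data. Copies were found with blastn 2.17.0 at 95.0% identity or more. Alternatives were a pseudocount of 0.1, no filter, median-of-ratios scaling, totals without globin and mitochondrial genes, and leaving out each library.

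Named genes were all mitochondrial genes, core catalytic subunits, subunits with paralogs, and per comparison up to 5 called members per direction with the largest change, with both libraries of the higher group at 5 FPKM or above and no overlap. The members and lists were chosen with earlier results of these data known. Some genes are not reported here.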

Additional observations from a re-analysis of the deposited data

How the results depend on the processing

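The direction of the nuclear members depended on the scaling. With median-of-ratios scaling, called members were 12 higher and 18 lower in spleen Ter against liver Ter and 24 and 3 in spleen Ter against CMP. They were 59 and 1 in liver Ter against MEP, 50 and 3 in liver Ter against CMP, and 1 and 9 in MEP against CMP. The counts of all genes are given above, and in MEP against CMP were 1864 higher and 1185 lower of 12728. With totals without globin and mitochondrial genes, 29 members were higher in spleen Ter against liver Ter, beside 5074 of 12980 genes. Members were 16 higher and 4 lower in spleen Ter against CMP and 27 higher in liver Ter against MEP. In liver Ter against CMP 9 were higher and 13 lower, and in MEP against CMP 23 were lower, beside 2023 of 12947 genes in the latter. A pseudocount of 0.1 gave 11 lower in liver Ter against MEP. Under median-of-ratios scaling, liver Ter against CMP turned positive for Atp5g1 (0.05), Sdhb (0.26), Atp5g3 (0.49), Ndufa12 (0.60), Sdha (0.08), Ndufv3 (0.33), Cox7a2l (0.05), Atp5a1 (0.44), Atp5c1 (0.20), Ndufb3 (0.29), Uqcrc2 (0.44) and Sdhc (0.32), and spleen Ter against liver Ter turned negative for Ndufs3 (-0.11), Ndufa12 (-0.08) and Atp5j (-0.04). The cause was not tested.

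Leaving out each library gave 39 to 44 higher and 6 to 9 lower in spleen Ter against liver Ter, 40 to 48 and 1 to 2 in spleen Ter against MEP, 4 to 8 and 11 to 15 in spleen Ter against CMP, 9 to 12 and 5 to 7 in liver Ter against MEP, 3 to 5 and 32 to 33 in liver Ter against CMP, and 0 and 35 to 46 in MEP against CMP. The lone library left in a group is assumed to vary like the other groups. The 2 lower members against MEP came without the deeper spleen library, and the 4 higher against CMP without the shallower one. In alternatives chosen after seeing the data, leaving out the 31 members with a near-identical copy among annotated transcripts, which keeps mt-Atp8, gave 4 lower in spleen Ter against liver Ter, 8 lower in spleen Ter against CMP, 7 higher in liver Ter against MEP and 1 higher in liver Ter against CMP. Without the libraries labelled MEP the calls were 44 and 9, 7 and 13, and 4 and 32 in the comparisons left, and without the spleen Ter libraries 12 and 6, 5 and 32, and 0 and 46.

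In the control, HSC and CLP columns, a 1.5-fold limit gave 46 higher and 3 lower in HSC against the control, 50 and 2 in CLP against the control, and 12 and 2 in HSC against CLP. Median-of-ratios scaling gave 6 higher in CLP and 2 lower in HSC against the control, and a pseudocount of 0.1 gave 2 lower in HSC against the control and 2 higher in HSC against CLP. Without globin genes, nuclear subunits held 1.76% of FPKM in liver Ter and 1.64% in spleen Ter, and mitochondrial genes 13.5% in liver Ter, 0.993% in spleen Ter and 8.63% in CLP. No paired analysis was possible because the columns carry no replicate numbers.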
